A study of Mus musculus with 6 samples.

Results

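The genes described here carry the interferon signal from the ligand through its receptors to the kinases that act on STAT proteins, together with a pair of feedback inhibitors. They are 10 named genes, matched by symbol, and all 10 were listed among the 14408 genes of the table. They comprise interferon beta (Ifnb1), the receptor chains Ifnar1, Ifnar2, Ifngr1 and Ifngr2, the Janus kinases Jak1, Jak2 and Tyk2, and the suppressors Socs1 and Socs3. The 6 RNA libraries came, by their labels, from the left ventricle. The mice were C57BL/6J males, 8 weeks old when the model began. Every mouse, controls included, was given a high-fat diet and drank water with 0.5 g/L L-NAME, which blocks nitric oxide synthesis, over 8 to 12 weeks, to model HFpEF (heart failure in which the ejection fraction is preserved). The L-proline group (3 libraries) then had L-proline injected into the peritoneum every day at 300 mg/kg over 4 to 8 weeks, and the PBS group (3 libraries) had the vehicle. There was no group without the model. The labels do not tie libraries to single animals, so the p-values below reflect library-to-library spread, which may be technical.

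Type I interferons, among them interferon beta, bind a receptor made of IFNAR1 and IFNAR2, whose associated kinases are TYK2 and JAK1. Interferon gamma binds IFNGR1 and IFNGR2, which work with JAK1 and JAK2. The kinases phosphorylate STAT proteins. A complex of STATs with IRF9 switches on genes that hold an interferon-stimulated response element (ISRE), while STAT pairs bind gamma-activated sites (GAS). SOCS1 is induced by interferons and inhibits the JAKs directly. SOCS3 is induced mainly through STAT3, downstream of cytokines such as interleukin 6 that use the shared receptor gp130, and inhibits JAK1 and JAK2 bound to such receptors.

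The promoters of the feedback genes and of the ligand show which of these elements lie near each start. All 10 genes matched RefSeq's promoter table (GRCm38.p6, not the build GRCm39 of the processing notes), and the 250 bases before the annotated start were searched on both strands. The ISRE core was taken as TTTC, any 2 bases and TTTC, or its reverse complement. It lay in 2.98% of the 32851 windows of the table and, among the 10 genes, in Socs1, where a pair of overlapping matches runs on the reverse strand. The GAS letters TTCNNNGAA lay in 7.02% of windows, and in those of Socs3 and Ifnar2. A pair of motifs was added after the sequences had been seen. The IRF letters AANNGAAA lay in 21.3% of windows, and in those of Ifnb1 and Socs1, where they overlap the ISRE core. The NF-kB type letters GGAAATTCC lay in 0.286% of windows and, among the 10 genes, in Ifnb1. Capitals below mark the ISRE core in Socs1, the GAS letters in Socs3, and the IRF and NF-kB type letters in Ifnb1. Each is written 5′ to 3′ in the direction of the gene. The Socs1 stretch is chr16:10785537-10785786, the Socs3 stretch chr11:117969367-117969616 and the Ifnb1 stretch chr4:88522795-88523044, all on the minus strand.
Socs1: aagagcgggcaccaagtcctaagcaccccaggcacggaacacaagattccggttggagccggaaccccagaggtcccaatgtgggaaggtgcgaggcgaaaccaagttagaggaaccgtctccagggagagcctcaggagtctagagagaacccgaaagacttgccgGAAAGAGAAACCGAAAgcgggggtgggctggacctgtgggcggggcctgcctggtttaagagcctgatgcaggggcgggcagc
Socs3: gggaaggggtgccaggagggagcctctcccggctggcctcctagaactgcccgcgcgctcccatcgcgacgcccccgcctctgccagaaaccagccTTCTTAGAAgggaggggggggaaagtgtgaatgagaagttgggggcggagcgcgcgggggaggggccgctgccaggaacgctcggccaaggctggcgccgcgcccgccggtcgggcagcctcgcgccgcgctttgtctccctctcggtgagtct
Ifnb1: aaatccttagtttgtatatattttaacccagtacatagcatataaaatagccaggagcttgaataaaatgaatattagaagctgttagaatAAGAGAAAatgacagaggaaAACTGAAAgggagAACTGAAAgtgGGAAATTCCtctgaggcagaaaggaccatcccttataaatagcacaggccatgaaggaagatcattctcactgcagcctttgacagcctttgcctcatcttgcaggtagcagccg
These matches are letters in a window, and binding was not measured.

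The values are FPKM, that is, fragments relative to gene length and to sequencing depth. Whole fragments could be recovered from them, with totals of 34990473 to 37498030 per library. Of 13 heart muscle markers, 7 were listed and 2 reached a mean of 1 FPKM, namely Tnnt2 and Tnnc1, and the other 5 listed were at 0.212 FPKM or lower in every one of these libraries labelled as heart. Those not listed were Myh6, Actc1, Myl3, Pln, Mybpc3 and Actn2. Whether the libraries hold whole left ventricle was not tested. The summed level of the 7 was 36.7 to 40.2 FPKM in PBS and 19.1 to 23.6 in L-proline. Tnnt2 gave most of it, and Tnnc1 stood at 4.76 to 7.22 FPKM over the 6 libraries. Fibroblast markers, 7 of 10 listed, summed to 3367 to 3466 FPKM in PBS and 4069 to 4475 in L-proline. Macrophage markers, 6 of 12 listed, summed to 19.8 to 22.2 and 21.9 to 25.5, and 1 of 12 T and NK cell markers was listed, at no more than 0.0682. Of 9 dendritic cell markers 4 were listed, with sums of 152 to 206 and 367 to 416 that came nearly all from Bst2, itself an interferon-induced gene. Pericyte and smooth muscle markers (9 of 10 listed) summed to 986 to 1102 in PBS and 905 to 1100 in L-proline, and endothelial markers (6 of 10) to 6.44 to 7.34 and 3.01 to 3.82. Most of the endothelial sum was Fabp4, with means of 5.93 FPKM in PBS and 2.55 in L-proline. Pecam1 was higher in L-proline (0.0163 and 0.0580), and Cdh5, Tek, Vwf and Egfl7 overlapped between groups. Neutrophil markers (3 of 8) and B cell markers (2 of 5) stayed at 1.14 or below. Long genes also differed between libraries. Among 973 tested genes of at least 9000 bases, the median log2 deviation from the 6-library mean was 0.14 in PBS 1, -0.05 in PBS 2 and 0.11 in PBS 3, and 0.09, -0.10 and -0.18 in L-proline 1, 2 and 3.

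L-proline was accompanied by more Socs1 and less Socs3, by the appearance of a few Ifnb1 fragments, and by lower Jak2 values that missed the threshold. The receptor chains differed little. The test was limma on log2(FPKM + 1) over the 10500 genes with a mean of at least 1 FPKM, with adjusted p under 0.05 as the threshold, and "rose" and "fell" are used for genes that passed it. Of the 9 tested genes, 1 rose, 1 fell and 7 did not pass. The background was high, with 19.6% of all tested genes passing, 7.50% higher and 12.1% lower, so 2 of 9 (22.2%) is a share near it. The division of all calls depended on scaling, with 788 higher and 1268 lower as deposited, 1079 and 1015 after quantile normalization, 1003 and 966 after scaling by median ratios, and 1164 and 1139 with a length trend removed. The 2 groups' FPKM did not overlap for 5 of the 9 genes, against 40.1% of all tested genes. The median log2 fold change of the 9 was -0.13, and -0.06 over all tested genes.

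**Figure D1:**
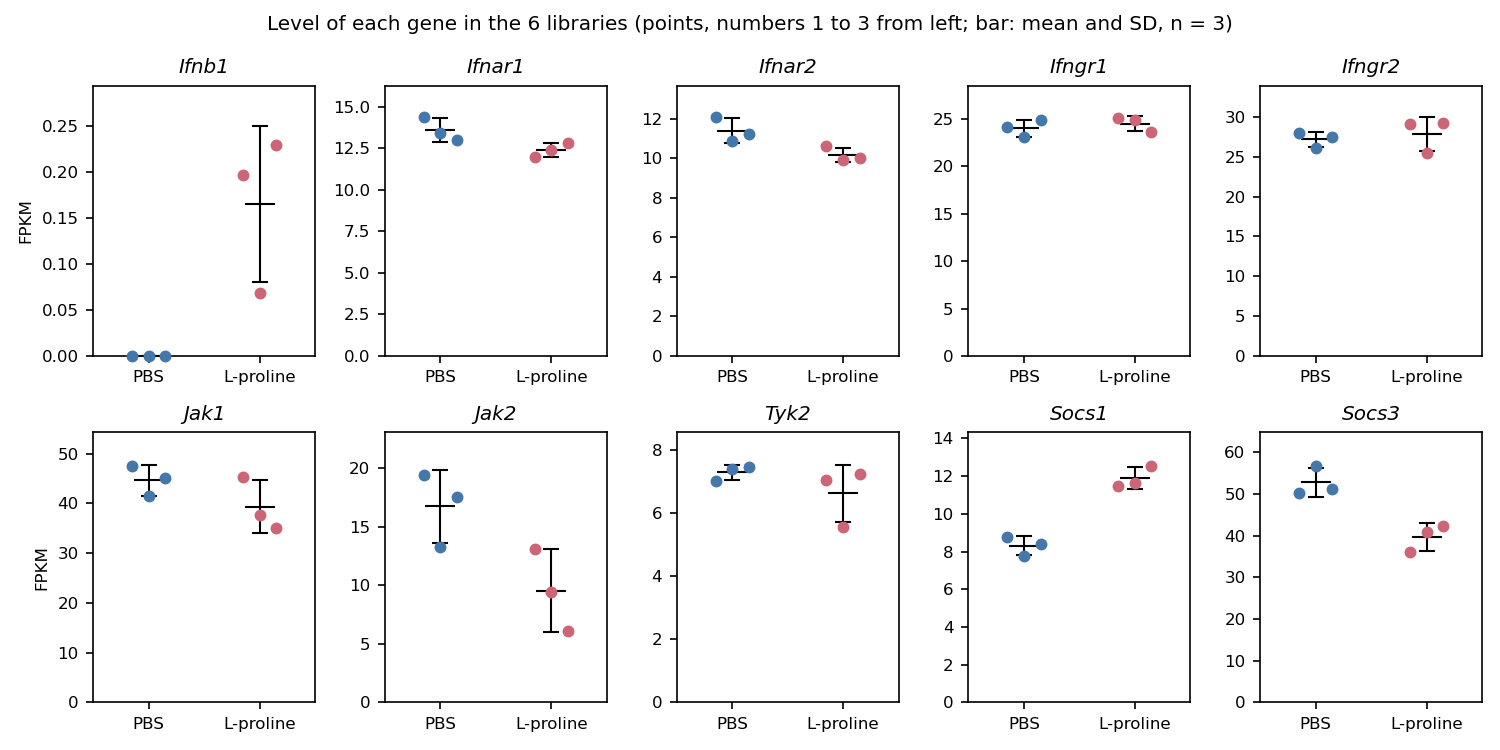
FPKM of the 10 genes in each of the 6 libraries, with PBS in blue and L-proline in red, each panel on its own axis from 0; points are libraries 1 to 3 from left to right, and bars show the mean and SD (n = 3). Ifnb1 is at 0 in the 3 PBS libraries, Socs1 is higher and Socs3 lower in every L-proline library than in any PBS library, and Jak2 spreads from 6.08 to 13.1 FPKM within L-proline.

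Ifnb1, which encodes the interferon that cells commonly make first on sensing foreign or misplaced nucleic acid, was seen in L-proline libraries only, and at a trace level. PBS 1, 2 and 3 each had 0 fragments. L-proline 1, 2 and 3 had 6, 2 and 7 fragments, or 0.197, 0.0688 and 0.229 FPKM. All 15 fragments thus lay in the L-proline group. A count of 0 in PBS allows up to 3 fragments over the group, a level of 0.0328 FPKM for this gene of 831 bases, counting error only. The level over the L-proline group was 5.08 times that limit, with no counting error allowed for its own 15 fragments. The gene lies far under the filter of 1 FPKM and was not tested. The pattern of 0 in all PBS and at least 1 fragment in every L-proline library was shared by 23 of 14407 genes with whole fragments (0.160%), and 22 genes showed the reverse. In these bulk samples fewer cells of a type and less RNA per cell cannot be told apart. The dendritic cell marker sum, mostly Bst2, was also higher in L-proline, and its part in this result was not tested. The other listed markers of that list were not higher. Mean FPKM in PBS and L-proline was 0.0306 and 0.00146 for Flt3, 0.301 and 0.147 for Zbtb46, and 1.92 and 1.90 for Tcf4.

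Interferon gamma (Ifng), made mainly by T and NK cells, went the other way at a like trace level; it was chosen after its values were seen. It had 1, 7 and 7 fragments in PBS 1, 2 and 3 and 0 in each L-proline library. With 3 fragments over the L-proline group as the limit, the level over the PBS group was 4.93 times that limit. No counting error was allowed for the PBS fragments. Of the 22 genes on the list of other interferons and the interferon lambda receptor, 2 were listed, and no interferon alpha gene was among them. The 1 tested was Il10rb, a chain of the lambda receptor, which differed by 0.07 on the log2 scale (limma, adjusted p = 0.597).

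The type I receptor genes were at moderate levels and slightly lower in L-proline, by less than the test could call. Ifnar1, the chain that holds TYK2, was 14.4, 13.5 and 13.003 FPKM in PBS 1, 2 and 3. It was 12.0, 12.4 and 12.8 in L-proline 1, 2 and 3. Every L-proline value lay below every PBS value, by a narrow margin. The log2 fold change was -0.12 ± 0.08 (limma, adjusted p = 0.272), with a 95% interval from -0.30 to 0.05. Ifnar2, the chain that binds the ligand most tightly and holds JAK1, was 12.1, 10.9 and 11.2 FPKM in PBS and 10.6, 9.92 and 10.03 in L-proline. These groups did not overlap either, and the log2 fold change was -0.15 ± 0.08 (limma, adjusted p = 0.212; interval -0.32 to 0.03). Both are long genes, at 7014 and 6674 bases, and with a length trend removed their log2 fold changes came to -0.02 and -0.04. Ifnar2 shares exons with the gene model Gm21970 in GENCODE M21, so how fragments were divided there is uncertain.

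The interferon gamma receptor genes stood at higher levels than the type I chains and overlapped between groups. Ifngr1, which binds interferon gamma, was 24.2, 23.1 and 24.9 FPKM in PBS and 25.1, 24.9 and 23.6 in L-proline. Its log2 fold change was 0.03 ± 0.07 (limma, adjusted p = 0.803; interval -0.13 to 0.19). Ifngr2, the signalling chain that brings in JAK2, was 27.9, 26.1 and 27.5 FPKM in PBS and 29.1, 25.5 and 29.2 in L-proline. Its log2 fold change was 0.03 ± 0.08 (limma, adjusted p = 0.787; interval -0.15 to 0.22). Neither interval excludes a small difference in either direction. The ratio of partner chains within a library also differed little. Ifnar2/Ifnar1 was 0.839, 0.806 and 0.863 in PBS and 0.882, 0.801 and 0.781 in L-proline (exact permutation test, two-sided, p = 0.7). Ifngr2/Ifngr1 ran from 1.11 to 1.16 in PBS and from 1.02 to 1.24 in L-proline (exact permutation p = 0.9).

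Among the kinases, Jak2 had the largest difference and the largest spread. JAK2 serves the interferon gamma receptor and receptors such as that of erythropoietin. Jak2 was 19.4, 13.3 and 17.6 FPKM in PBS 1, 2 and 3, and 13.1, 9.42 and 6.08 in L-proline 1, 2 and 3. The groups just failed to overlap, since PBS 2 and L-proline 1 were nearly equal, and L-proline 3 lay far below the rest. The log2 fold change was -0.79 ± 0.24 (limma, adjusted p = 0.0532; interval -1.34 to -0.24), which missed the threshold. It passed under 6 of 17 alternative settings, with adjusted p from 0.00140 to 0.166 over them. Among these were 0.00765 without L-proline 1 and 0.0490 without PBS 2. It was 0.0982 without L-proline 3, at a log2 fold change of -0.53.

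Jak2 is a long gene model, at 10935 bases recovered, and its order over the libraries was close to that of long genes as a class. The log2 deviation of Jak2 from its 6-library mean was 0.61, 0.10 and 0.48 in PBS 1, 2 and 3. It was 0.08, -0.36 and -0.91 in L-proline 1, 2 and 3. PBS 1 and PBS 3 were highest and L-proline 3 lowest both for Jak2 and for genes of at least 9000 bases. The deviations of Jak2 were larger in size than the medians of that class in 5 of the 6 libraries and smaller in L-proline 1, and in PBS 2 they differed in sign. Once each library's trend with length had been subtracted, an alternative chosen after seeing the data, the log2 fold change of Jak2 was -0.66 (limma, adjusted p = 0.0259).

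**Figure D2:**
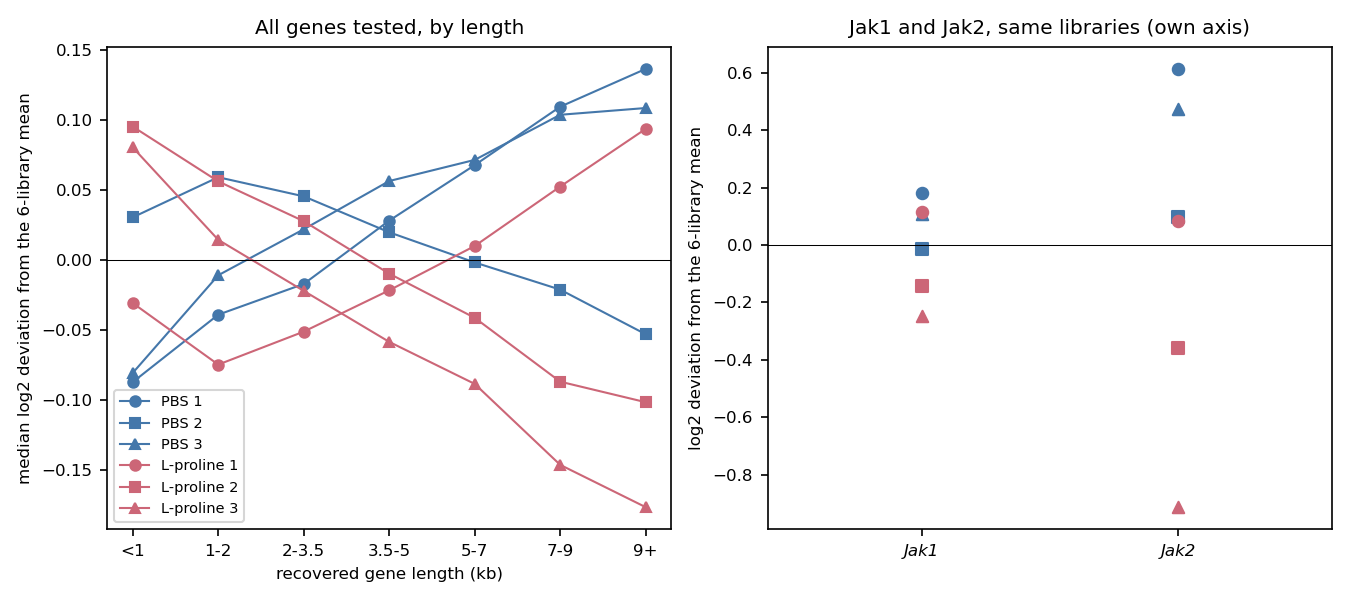
Left, the median log2 deviation from the 6-library mean for tested genes in 7 classes of recovered gene length (kb), with 1 line per library; right, the same deviation for Jak1 and Jak2 on an axis of its own. Genes of at least 9000 bases have medians of 0.14 in PBS 1 and -0.18 in L-proline 3, and Jak2 deviates by 0.61 and -0.91 in the same libraries.

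Jak1, the kinase that all these receptors share, was the most abundant of the kinases. It was 47.5, 41.4 and 45.04 FPKM in PBS and 45.3, 37.7 and 35.03 in L-proline. L-proline 1 lay within the PBS range and the other two below it. The log2 fold change was -0.18 ± 0.10 (limma, adjusted p = 0.242; interval -0.43 to 0.06), and the adjusted p was 0.0387 without L-proline 1. Tyk2, the kinase of IFNAR1, was 7.01, 7.40 and 7.45 FPKM in PBS and 7.05, 5.56 and 7.22 in L-proline, where L-proline 2 alone was low. Its log2 fold change was -0.13 ± 0.10 (limma, adjusted p = 0.405; interval -0.37 to 0.11). Jak1 shares exons with Raver2 and Tyk2 with 1700084C06Rik on the opposite strand in GENCODE M21. The sources used here do not say whether the counting used strand. Relative to Jak1 in the same library, Jak2 stood at 0.408, 0.321 and 0.390 in PBS and 0.290, 0.250 and 0.174 in L-proline. That ratio had an exact permutation p = 0.1, the smallest that 3 against 3 can give, or 0.25 adjusted over the 5 ratios. Tyk2/Jak1 overlapped between groups, from 0.148 to 0.179 in PBS and from 0.147 to 0.206 in L-proline (exact permutation p = 0.9).

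The suppressors moved in opposite directions. Socs1, the inhibitor induced by interferons and the gene with the ISRE core matches shown above, was 8.78, 7.77 and 8.40 FPKM in PBS 1, 2 and 3. It was 11.5, 11.6 and 12.5 in L-proline 1, 2 and 3. All L-proline values lay above all PBS values, with a gap wider than the spread within either group. Socs1 rose from 8.31 ± 0.509 to 11.9 ± 0.573 FPKM (SD, n = 3), a log2 difference of 0.47 ± 0.08 (limma, adjusted p = 0.00668; interval 0.28 to 0.65). The call held under all 17 alternative settings, with adjusted p from 0.000782 to 0.0390. Socs1 rested on 374 to 441 fragments in PBS and 545 to 618 in L-proline.

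Socs3, which acts on gp130-type receptors and whose promoter window holds the GAS letters, was 50.3, 56.8 and 51.3 FPKM in PBS 1, 2 and 3. It was 36.02, 40.9 and 42.4 in L-proline 1, 2 and 3. No L-proline library reached the lowest PBS value. Socs3 fell from 52.8 ± 3.5005 to 39.8 ± 3.35 FPKM (SD, n = 3), a log2 difference of -0.40 ± 0.09 (limma, adjusted p = 0.0157; interval -0.60 to -0.20). The call held under 15 of 17 alternatives and was lost narrowly without PBS 2 (adjusted p = 0.0536) and without PBS 3 (adjusted p = 0.0593), with adjusted p from 0.00218 to 0.0593 over all of them.

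Set against each other within a library, Socs3 exceeded Socs1 by 5.73, 7.31 and 6.11 times in PBS 1, 2 and 3. In L-proline 1, 2 and 3 it did so by 3.14, 3.52 and 3.38 times. A single scaling factor per library cannot move this ratio. The log2 difference was -0.93, L-proline minus PBS, with group means of 2.67 ± 0.18 and 1.74 ± 0.08 (SD, n = 3). The exact permutation test gave p = 0.1, again its minimum, and 0.25 adjusted over 5 ratios. The groups did not overlap, and the Socs3 level remained above that of Socs1 in every library.

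**Figure D3:**
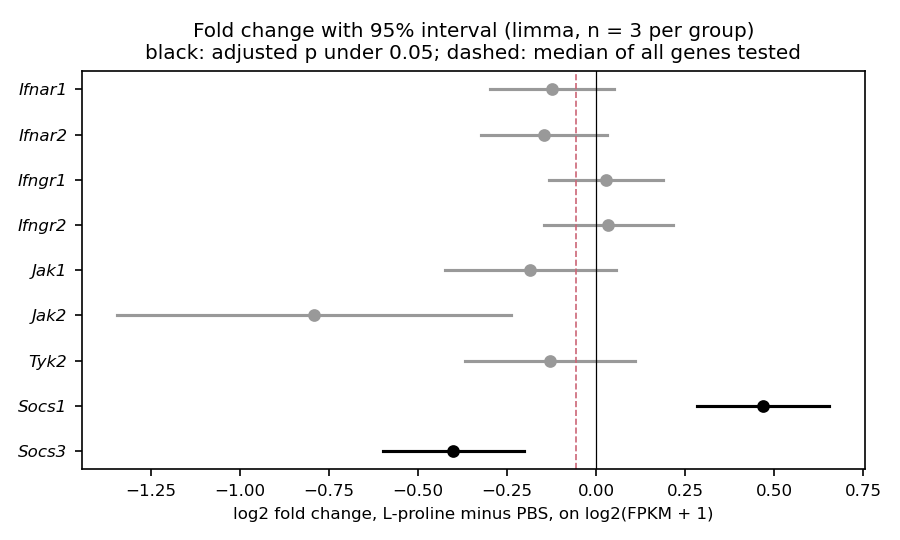
Log2 fold change of the 9 tested genes, L-proline minus PBS, on log2(FPKM + 1), with 95% intervals from limma (n = 3 per group); black marks adjusted p under 0.05, and the dashed line is the median of all tested genes, -0.06. Socs1 at 0.47 and Socs3 at -0.40 are the black points, and the interval of Jak2 is the widest.

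Genes were also sought whose profile over the 6 libraries was closest to that of each suppressor, by the root mean square difference of mean-centred log2(FPKM + 1). For Socs1 these were Amz2 (0.03), Dnaja3 (0.04) and Iffo1 (0.04), among 10181 genes compared. Dnaja3 encodes a mitochondrial co-chaperone of the DnaJ family. For Socs3 they were Apeh, Napa and Coro1c, each at 0.02. Apeh encodes a peptidase, Napa a protein of membrane fusion and Coro1c a coronin that binds actin.

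By level, Socs3 and Jak1 were highest and Ifnb1 lowest in both groups. In PBS the order of mean FPKM was Socs3 (52.8), Jak1 (44.7), Ifngr2 (27.2), Ifngr1 (24.04), Jak2 (16.8), Ifnar1 (13.6), Ifnar2 (11.4), Socs1 (8.31), Tyk2 (7.29) and Ifnb1. Of neighbours in that order, Jak2 and Ifnar1 overlapped in range over the PBS libraries. In L-proline Socs3 (39.8) and Jak1 (39.3) overlapped. Socs1 (11.9) stood next to Ifnar1 (12.4) and overlapped it, and Jak2 (9.55) came below Ifnar2 (10.2), overlapping both it and Tyk2 (6.61), the next in order. Between the groups Jak2 went from rank 5 to rank 8 and Socs1 from rank 8 to rank 6. FPKM is per length, so these levels can be set side by side, within the limits of the gene models used.

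Downstream of the kinases, Irf9 and Stat2, which encode parts of the complex that binds ISREs, rose. Irf9 went from 19.1 ± 1.94 to 42.1 ± 2.46 FPKM (limma, adjusted p = 0.000405) and Stat2 from 23.8 ± 1.20 to 40.9 ± 0.577 (limma, adjusted p = 0.000481). Stat3, through which Socs3 is mainly induced, was 62.1 ± 1.73 and 64.1 ± 4.61 FPKM (limma, adjusted p = 0.704), and Stat5a was 8.28 ± 0.161 and 7.29 ± 0.690 (limma, adjusted p = 0.213). The receptor and kinase genes above had log2 fold changes from -0.79 to 0.03, and their difference from Irf9 and Stat2 was not tested.

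Among the remaining inhibitors of the pathway Usp18 passed the test, and whether the others differ from Socs1 was not tested. Of 5 tested SOCS family genes other than Socs1 and Socs3, 0 passed with limma, 3 had an unadjusted p under 0.05, and 0 passed with voom, where 19.6% of all tested genes passed with limma. Socs6 was 6.80 ± 0.870 and 4.50 ± 1.04 FPKM (limma, adjusted p = 0.0512), Socs2 2.29 ± 0.253 and 1.58 ± 0.372 (0.0790), Socs7 5.50 ± 0.216 and 6.78 ± 0.747 (0.0927) and Socs5 14.3 ± 0.205 and 12.7 ± 0.929 (0.182). The number that passed was 1 or 2 under some alternatives, for example 2 without L-proline 1 and 2 with a length trend removed. Over all tested genes, 2770 and 2303 passed under these settings, in that order, against 2056 in the main test. Of 9 other tested negative regulators, 1 rose, 0 fell and 8 did not pass, against the same 19.6%. The 1 was Usp18, which binds IFNAR2 and dampens type I signalling besides removing ISG15 from proteins. It went from 17.3 ± 2.05 to 82.9 ± 1.31 FPKM. Pias2, a SUMO ligase that restrains STATs, was 14.9 ± 2.03 and 10.9 ± 2.26 FPKM (limma, adjusted p = 0.0822). Without L-proline 1, where 2770 of all 10488 tested genes passed, the list had 3 genes past the threshold, 1 higher and 2 lower.

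Of 15 tested genes on the list of other JAK-coupled receptors, 3 fell and 0 rose, a share close to that of all tested genes (19.6%). Il4ra, the interleukin 4 receptor, went from 40.8 ± 1.56 to 25.4 ± 2.17 FPKM (limma, adjusted p = 0.00163). Epor, the erythropoietin receptor that works with JAK2, went from 3.46 ± 0.541 to 1.77 ± 0.228 (limma, adjusted p = 0.00626). Il13ra2, known as a decoy for interleukin 13, went from 2.70 ± 0.565 to 1.44 ± 0.416 (limma, adjusted p = 0.0302), and passed under 13 of 17 alternatives. Osmr, the oncostatin M receptor, was 49.4 ± 10.4 and 33.4 ± 8.91 FPKM (limma, adjusted p = 0.0905). Without L-proline 1, 5 receptor genes passed, 1 higher and 4 lower. Over all tested genes, 2770 of 10488 passed in that setting, against 2056 of 10500 in the main test.

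Of 4 tested gp130 cytokines, 1 fell and 0 rose, a share near the 19.6% of all tested genes. Il6, the ligand best known for inducing Socs3, was 73.7, 58.8 and 76.7 FPKM in PBS and 59.8, 46.8 and 43.4 in L-proline. The groups overlapped, since L-proline 1 lay above PBS 2. Its log2 fold change, -0.48 ± 0.14, passed narrowly (limma, adjusted p = 0.0486). It passed under 6 of 17 alternatives, with adjusted p from 0.000857 to 0.174 over them. Without PBS 1, PBS 3 or L-proline 3 no gene of the list passed. Over all tested genes, 976, 874 and 1616 passed in those settings, against 2056 in the main test. Clcf1, another ligand of this class, was 14.3 ± 0.260 and 11.6 ± 1.16 FPKM (limma, adjusted p = 0.0524). Among 18 STAT3-responsive genes, 8 fell, 0 rose and 10 did not pass, with a list median of -0.27 against -0.06 over all tested genes. Over all tested genes 12.1% fell and 7.50% rose. The list includes Osmr and Il6st, counted above among the receptors, and Stat3. The kinase gene Pim1 went from 21.6 ± 1.34 to 10.7 ± 1.53 FPKM and the protease inhibitor gene Timp1 from 487 ± 32.5 to 268 ± 27.1. Lcn2 and Hp, both acute phase genes, changed by -1.71 ± 0.16 and -1.46 ± 0.14 on the log2 scale. Without PBS 3, 5 of the list passed, where 874 of all 10484 tested genes did. The fibroblast marker sum given above was higher in L-proline than in PBS, and its part in these differences was not tested. Its genes did not move together. The collagen genes Col1a1, Col1a2 and Col3a1 rose, and Pdgfra fell from 7.84 to 5.97 FPKM (limma, adjusted p = 0.0215). Dcn, Postn and Fn1 did not pass.

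Genes that interferons induce rose in both classes. Of 18 tested genes of the type I (ISRE) list 17 rose, 0 fell and 1, Ifit2, did not pass, and the median log2 fold change was 1.45. Among all tested genes 7.50% rose and 12.1% fell, and the median was -0.06. The type I list includes Usp18, counted above among the negative regulators. Ifit3 went from 16.9 ± 1.24 to 127 ± 13.6 FPKM, Ifit1 from 18.7 ± 1.22 to 104 ± 16.5 and Dhx58, a helper of RNA sensors, from 9.69 ± 0.612 to 35.7 ± 2.10. Of 14 tested genes of the interferon gamma (GAS) list 12 rose, 1 fell and 1 did not pass, with a median of 0.94. Irgm2 went from 9.22 ± 1.02 to 29.4 ± 0.725 FPKM, Igtp from 12.2 ± 1.43 to 39.05 ± 2.05 and Gbp2 from 7.59 ± 0.524 to 17.02 ± 0.973. Irf1, a transcription factor gene with a GAS-driven promoter, rose by less (0.27 ± 0.07 on the log2 scale; limma, adjusted p = 0.0340) and passed under 13 of 17 alternatives. The 1 that fell was Nos2, inducible nitric oxide synthase, from 36.3 ± 2.99 to 25.6 ± 3.51 FPKM; Stat3, Irf1, Nos2 and Ifit2 are named after their values were seen. Many genes of the GAS list also respond to type I interferon, so the lists do not separate the ligands. The log2 fold change of Socs1, 0.47, was below the median of either list.

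**Figure D4:**
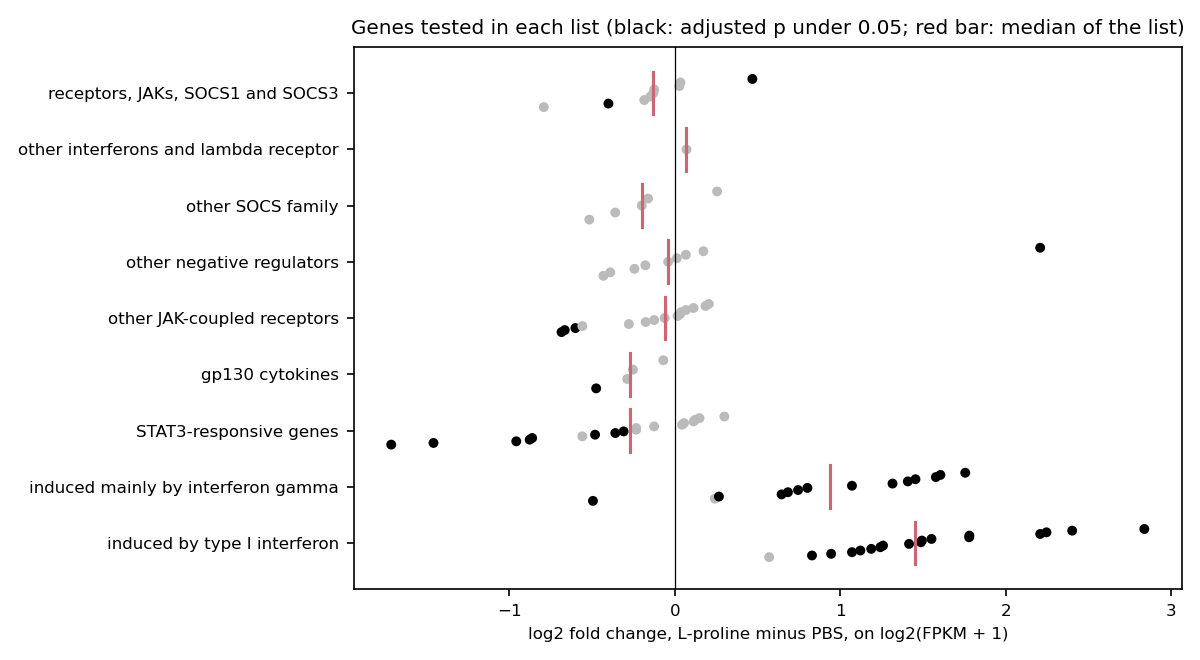
Log2 fold change, L-proline minus PBS, of each tested gene in 9 lists, with 1 point per gene, black where adjusted p is under 0.05, and a red bar at the median of the list. The type I list has its median at 1.45 and the STAT3-responsive list at -0.27, while the median of the receptors, JAKs, Socs1 and Socs3 is -0.13.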

How the data were processed

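RNA from 3 PBS and 3 L-proline libraries was measured, and groups and numbers came from the sample titles. The authors deposited 1 table of FPKM values, per the file headers; HTSeq 0.13.5, HISAT2 and the build GRCm39 appear in the submitters' processing notes, with no roles given. The sources used here do not say why these genes were listed. FPKM depends on the gene model and on each library's other abundant genes. Library totals were solved from 13 mitochondrial genes (GENCODE M21 lengths), and each gene's length as the shortest giving 6 whole values within 0.01, which worked for 14407 of 14408 genes. Counting limits cover counting error only.

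Differences were tested with limma 3.58.1 in R 4.3.3 on log2(FPKM + 1), with a mean-variance trend, two-sided and Benjamini-Hochberg adjusted over the 10500 genes with a mean of at least 1 FPKM. Errors of log2 fold changes are standard errors, and the scale understates changes of low genes. Ratios were tested with exact permutation tests in scipy 1.17.1. The members, the 9 other pathway lists and the 9 marker lists were chosen with earlier results of these data known. Named are all members, up to 4 tested genes of each list with the smallest unadjusted p, and the closest profiles, leaving out predicted models and pseudogenes; others are said to be named after their values were seen. The count and median of the list of STATs and IRF9 are not reported here. The 17 alternatives changed pseudocount, filter, scaling, variance model, weights, block or libraries, used voom, or removed a length trend (added after seeing the data). The steps were tested on simulated data.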

Additional observations from a re-analysis of the deposited data

How the results depend on the processing

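Socs1 and Socs3 kept their direction under all 17 alternatives. Sample weights raised the calls among all genes from 2056 to 4671 and among the 9 tested members from 2 to 5, adding Jak1, Jak2 and Tyk2; the cause was not tested. Leaving out each library in turn gave 874 to 2770 calls over all genes and 1 to 4 among the members, the lowest of both without PBS 3 and the highest of both without L-proline 1. The count over all genes was 976 without PBS 1. Quantile normalization gave 3 members past the threshold, with Jak2 at an adjusted p of 0.0446. With no filter Socs1 and Socs3 again passed. Ifnb1, which lies under the filter, is described by its fragments only. Ifngr2 changed sign with sample weights (-0.054), and Ifngr1 ran from -0.00033 to 0.054 over the left-out libraries. Over the same, the difference in log2 Ifnar2/Ifnar1 ran from -0.079 to 0.0087, Ifngr2/Ifngr1 from -0.055 to 0.083 and Tyk2/Jak1 from -0.11 to 0.13.

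Whether the numbers in the titles pair the libraries could not be settled. Deviations of same-numbered libraries correlated at 0.65, 0.42 and -0.35 across genes. L-proline 1 and 2 correlated best with the PBS library of their own number, and L-proline 3 with PBS 2 (0.53). Trends that run through a whole library, such as that with length, enter these correlations, so they cannot decide the question. With the number as a replicate block there were 2383 calls over all genes and 3 among the members, the third being Jak2. With 3 libraries against 3, an exact permutation test cannot go below 0.1, and Ifnb1 rests on 15 fragments in all.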

Other observations

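A few further genes of JAK signalling had a mean under 1 FPKM over the 6 libraries and were chosen after their values were seen. Jak3, the kinase of the common gamma chain of lymphocyte cytokine receptors, had 127, 128 and 176 fragments in PBS 1, 2 and 3 and 84, 88 and 105 in L-proline 1, 2 and 3. Cish, a SOCS family gene induced through STAT5, had 122, 91 and 147 fragments in PBS and 55, 72 and 61 in L-proline. Ptpn6, which encodes the phosphatase SHP-1, had 92, 110 and 103 in PBS and 60, 54 and 60 in L-proline. As these genes were chosen by their values, no count of overlap between groups is drawn from them. Stat6, Cntfr, Il15ra and Il20rb, other genes of JAK signalling under 1 FPKM, overlapped between groups. The share of 40.1% given above covers tested genes only, and no share is given for genes under 1 FPKM. Cd274, the gene of PD-L1, which interferon gamma induces, had 38, 39 and 38 fragments in PBS and 113, 75 and 76 in L-proline.

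The genes with the profile closest to that of Jak2, looked up after its values were seen, were Dock11, Lrch2 and Top2a, with root mean square differences of 0.04, 0.05 and 0.05. Top2a, the topoisomerase gene of dividing cells, stood at 111, 83.9 and 99.7 FPKM in PBS 1, 2 and 3 and at 75.4, 59.9 and 39.5 in L-proline 1, 2 and 3. Its gene model has 5239 bases, and those of Dock11 and Lrch2 have 9427 and 6885. Among tested genes under 1000 bases 16.5% were higher and 7.46% lower in L-proline, and among those of at least 9000 bases 2.26% and 7.50%.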
